A study of Homo sapiens with 22 samples.

Results

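The transcriptome of maturing BAZ1B KO cells was compared with that of WT cells at D6 of maturation, in HUDEP-2, an immortalized line of human erythroid progenitors. The comparison uses 6 of the 22 samples of the series, 3 BAZ1B KO and 3 WT libraries, chosen by their genotype and day. The paper describes subclones of HUDEP-2 for both genotypes. The labels number the replicates, and the sources used here do not state whether each WT library came from a subclone of its own. The KO subclones carry a homozygous deletion made with paired CRISPR/Cas9 guides, 1 upstream of the start codon and the other downstream of the first exon, and the sources used here do not state whether the 3 KO subclones came from separate edits. At D0 the cells were expanded with SCF, EPO, doxycycline and dexamethasone. By D6 they had matured in medium that kept SCF, EPO and doxycycline, lost dexamethasone and gained plasma, insulin, heparin and holo-transferrin. The 3 KO and 3 WT libraries of D0 were used to ask which differences of D6 were already present in expanding cells.

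BAZ1B, also called WSTF, is a subunit of ISWI chromatin remodelers and a tyrosine kinase that phosphorylates the histone variant H2A.X near its end. It lies in the stretch of chromosome 7 that is deleted in Williams-Beuren syndrome. In maturing erythroid cells the chromatin condenses, transcription narrows to globin, heme and membrane genes, and the genes of proliferation and of other blood lineages are shut down before the nucleus is lost.

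The deposited counts at D6 summed to between 34217922 and 39866007 reads per library. Agreement of libraries was measured across the 5634 tested genes with a mean log2 CPM above 5 over the 12 libraries. CPM are counts scaled to a common library total. Pearson's r of the log2 CPM was 0.99666 to 0.99846 between WT libraries and 0.98855 to 0.99399 between KO libraries. It was 0.98245 to 0.98846 between a KO and a WT library. Of the 10679 tested genes with a mean of at least 50 normalized reads, 6820 (63.9%) had a larger SD of the log2 counts among KO than among WT libraries. The KO libraries thus differed more from one another than the WT libraries did. No library pair agreed within sampling noise. Erythroid identity held in all 6 libraries, with KLF1 at 34100 or more and GATA1 at 12000 or more normalized reads in each. No chromosome stood apart, with chromosome medians of the log2 fold change between -0.009 and 0.027. Values below are normalized read counts, which put all libraries on the mean of their effective sizes. Log2 fold changes are KO relative to WT and are given ± SE, worked back from the test statistic. Adjusted p values are Benjamini-Hochberg values of edgeR's quasi-likelihood test over 13879 genes.

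BAZ1B transcripts were reduced but not lost in the KO libraries. BAZ1B, at 73440406 to 73522293 on the minus strand of chromosome 7 (GRCh38), had 7037, 7377 and 6817 reads in KO and 9135, 9429 and 9104 in WT. All KO values lay below all WT values. The log2 fold change was -0.38 ± 0.0672 (adjusted p = 0.0025), and at D0 it was -0.40 (adjusted p = 0.00415). The deposited value is 1 count per gene, so it does not separate the deleted stretch from the exons outside it. The paper identified the deletions by PCR and Sanger sequencing and examined BAZ1B protein by western blot. It also reported that H2A.X phosphorylation at Y142 was lost in the KO cells. RNA counts over the whole gene do not measure the protein. The RefSeq promoter on chr7:73522244-73522543 (GRCh38.p14, minus strand) is shown as the start of the edited gene, with the first 50 transcribed bases in capitals. Where the guides cut within it was not examined.

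BAZ1B: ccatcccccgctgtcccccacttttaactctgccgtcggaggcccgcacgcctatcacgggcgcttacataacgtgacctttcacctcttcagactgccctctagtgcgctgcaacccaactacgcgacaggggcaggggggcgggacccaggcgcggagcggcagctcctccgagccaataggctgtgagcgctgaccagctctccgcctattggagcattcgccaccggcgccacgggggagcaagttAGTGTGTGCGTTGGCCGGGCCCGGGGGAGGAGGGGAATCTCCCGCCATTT

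The neighbours of BAZ1B in band 7q11.23 did not follow it. Of 18 tested genes of the band, GTF2I, a general transcription factor, was called higher with a log2 fold change of 0.14 ± 0.0401 (adjusted p = 0.0428), and no gene was called lower. The call of GTF2I was lost without any 1 library other than the second of KO (adjusted p up to 0.128). The median of the band was 0.01, while the median over all tested genes was -0.0037.

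A gene was called at an adjusted p below 0.05, and a DEG needed an adjusted p below 0.001 together with a log2 fold change of more than 1.5 in size. By these rules 954 genes were called higher in KO (6.87% of those tested) and 828 lower (5.97%), and 19 were DEGs with higher (0.137%) and 85 with lower expression (0.612%). Most called differences were small. The median log2 fold change was 0.34 among the genes called higher and -0.54 among those called lower, and it was under 1 in size for 850 (89.1%) and 559 (67.5%) of them. KO and WT libraries did not overlap for any of the 104 DEGs. Over all tested genes, KO lay wholly above WT for 2175 (15.7%) and wholly below it for 2103 (15.2%). Most DEGs were thus lower in KO, whereas called differences under 1 in size were more often higher. The counts depended on single libraries. Without the second or the third WT library 9 and 12 higher DEGs were found, and 627 and 585 genes were called higher. Lower DEGs numbered 45 without the third KO library and 51 to 52 without any 1 WT library, and 527 genes were called lower without the third WT library.

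**Figure D1:**
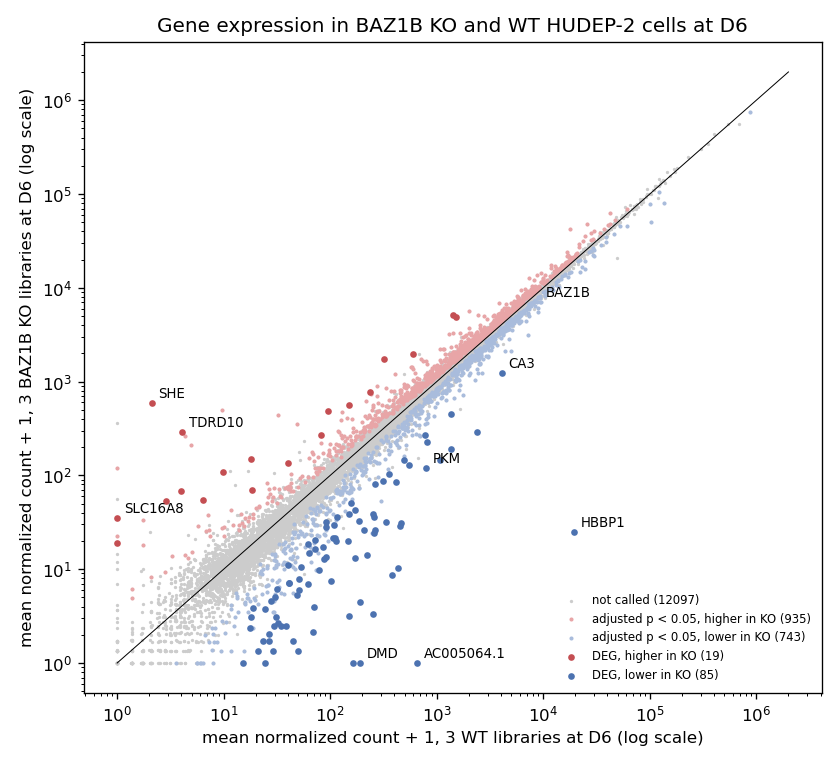
Mean normalized read count plus 1 of each tested gene at D6 in WT (x axis) and BAZ1B KO (y axis), both log axes, each point 1 gene and the line equality. Of 13879 genes 85 DEGs lie below the line and 19 above it, and the DEGs farthest from it have counts at or near 0 in 1 genotype.

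The genes with the largest loss were transcribed in every WT library and silent or nearly silent in every KO library. HBBP1, a pseudogene of the beta globin cluster, had 30.7, 17.4 and 24.1 reads in KO and 19940, 17740 and 21007 in WT, a log2 fold change of -9.64 ± 0.134 (adjusted p = 1.27e-13). Its KO and WT values were far apart, and no other DEG had so many reads in WT. DMD, which encodes dystrophin, the link between the actin cytoskeleton and the membrane complex of muscle, had no read in KO and 201, 192 and 173 in WT. Set against a floor of 3 reads over the group, DMD was at least 177-fold lower in KO. ZNF215, an imprinted zinc finger gene, had no read in KO and 165, 177 and 144 in WT, which is at least 152-fold lower. AC005064.1, a transcript known only by its clone name, had no read in KO and 621, 669 and 684 in WT, at least 621-fold lower. ATP1B4 and MTUS1 had no KO read either, but only 65 and 39 reads over the WT libraries, so that their bounds were lower, at 22.1-fold and 13.3-fold.

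Several of these genes encode regulators of transcription or of cell identity. TFAP2A, a transcription factor of neural crest and epidermis, had 6.94, 3.48 and 0 reads in KO and 206, 189 and 173 in WT (-5.70 ± 0.346, adjusted p = 8.71e-07). ZNF711, an X-linked zinc finger gene, had 5.94, 0 and 1.05 in KO and 257, 264 and 233 in WT (-6.60 ± 0.388, adjusted p = 7.87e-07). PEG3, a zinc finger gene expressed from the paternal allele, had 1.98, 4.64 and 0 in KO and 142, 155 and 147 in WT (-6.04 ± 0.375, adjusted p = 9.45e-07). For all 3 the KO values stayed below 10 reads, far from every WT value. PITX1, a homeobox factor of the hind limb, was reduced without being lost, with 148, 221 and 206 in KO and 1354, 1249 and 1517 in WT (-2.85 ± 0.144, adjusted p = 9.62e-07).

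Further genes of this kind had roles outside transcription. RNF182, a ubiquitin ligase, had 0, 18.6 and 9.42 reads in KO and 469, 406 and 432 in WT (-5.59 ± 0.495, adjusted p = 5.73e-05). SLFN13, an RNase of the Schlafen family, had 7.93, 4.64 and 10.5 in KO and 365, 336 and 424 in WT (-5.57 ± 0.227, adjusted p = 2.75e-08). No KO value of either gene reached 20 reads. RFTN1, a lipid raft protein, fell by 4.10 on the log2 scale to a KO mean of 13.0 ± 4.99 (SD, n = 3), and SH3BGRL2 fell by 4.02 to 27.6 ± 9.45. CCN3, a secreted matricellular protein, fell by 4.57, and PDK4, the kinase that inhibits pyruvate dehydrogenase, fell by 3.96, both with KO means under 7 reads.

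Fewer genes were gained, and a pair of neighbours led the gained DEGs with at least 50 reads. SHE, which encodes an SH2 domain adaptor, had 349, 829 and 603 reads in KO and 3.35, 0 and 0 in WT. With 3 reads over the WT libraries, the ratio of KO to WT was 537, with an exact 95% counting interval of 183 to 2606. TDRD10, which encodes a Tudor domain protein, had 148, 469 and 255 in KO and 1.12, 0 and 8.06 in WT, a log2 fold change of 6.43 ± 0.761 (adjusted p = 0.000155). Both genes were on in all KO and off or nearly off in all WT libraries, and both were highest in the second KO library. Their annotated starts lie 193 bp apart on opposite strands of chromosome 1, SHE on the minus strand from 154469772 to 154502412 and TDRD10 on the plus strand from 154502219 to 154548147, so that the 2 genes overlap at their 5′ ends. The next tested genes on either side were not called. IL6R had a log2 fold change of -0.56 (adjusted p = 0.0601) and UBE2Q1 one of -0.04 (adjusted p = 0.657).

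The promoter sequences of this divergent pair are shown because both genes moved together, with every CpG dinucleotide in capitals. The SHE window is chr1:154502363-154502662, read on the minus strand, and the TDRD10 window is chr1:154501969-154502268, read on the plus strand (RefSeq, GRCh38.p14). They hold 41 and 45 CpG, and of 9800 promoters of tested genes with a window of the same length, 11.4% and 5.83% hold at least as many.

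SHE: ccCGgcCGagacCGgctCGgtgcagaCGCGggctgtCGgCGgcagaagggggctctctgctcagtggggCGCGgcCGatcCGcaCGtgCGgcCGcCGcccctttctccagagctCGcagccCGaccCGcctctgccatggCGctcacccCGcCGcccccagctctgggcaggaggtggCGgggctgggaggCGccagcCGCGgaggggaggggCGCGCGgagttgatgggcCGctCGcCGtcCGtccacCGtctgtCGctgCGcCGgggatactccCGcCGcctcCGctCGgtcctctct
TDRD10: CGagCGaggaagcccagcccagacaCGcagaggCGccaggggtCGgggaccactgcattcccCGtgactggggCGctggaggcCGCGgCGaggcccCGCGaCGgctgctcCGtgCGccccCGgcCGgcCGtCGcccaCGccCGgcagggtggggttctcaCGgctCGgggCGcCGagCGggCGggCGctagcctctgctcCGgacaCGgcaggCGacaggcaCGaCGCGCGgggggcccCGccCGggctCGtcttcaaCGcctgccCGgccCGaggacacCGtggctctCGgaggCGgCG

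Other gained genes differed in their WT levels. SERPINB1, an inhibitor of neutrophil proteases, had 46.6, 63.8 and 47.1 reads in KO and 2.23, 3.39 and 0 in WT (4.76 ± 0.53, adjusted p = 0.000101). RYR3, a calcium release channel of the endoplasmic reticulum, had 111, 24.4 and 67 in KO and 3.35, 4.53 and 1.01 in WT (4.51 ± 0.62, adjusted p = 0.00048). HRH2, a histamine receptor, had 83.2, 136 and 105 in KO and 1.12, 9.05 and 16.1 in WT (3.57 ± 0.44, adjusted p = 0.000208). The groups were separate for all 3, although RYR3 was far lower in the second KO subclone than in the first. INPP5F, a phosphoinositide phosphatase, had 1089, 2400 and 1753 in KO and 347, 281 and 330 in WT (2.45 ± 0.277, adjusted p = 0.000112). ZNF689, a zinc finger gene, had 4390, 5211 and 5603 in KO and 1492, 1367 and 1390 in WT (1.84 ± 0.151, adjusted p = 1.05e-05), the highest level among the gained DEGs. SLC16A8, a lactate carrier, had 25.8, 39.5 and 37.7 reads in KO and none in WT, at least 31.4-fold higher, and AL022322.1 was at least 16.7-fold higher on the same floor. PTGR1, GVINP2, ACAP1, ST8SIA1, MCF2, FBN1 and LGALS3BP rose by 1.73 to 3.27 on the log2 scale. PLS3, an actin bundling protein, had 41.6, 978 and 472 reads in KO against 4.53 to 11.1 in WT and was called (5.82 ± 1.43, adjusted p = 0.0178). It was no longer called when any 1 WT library was left out (highest adjusted p = 0.0745).

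**Figure D2:**
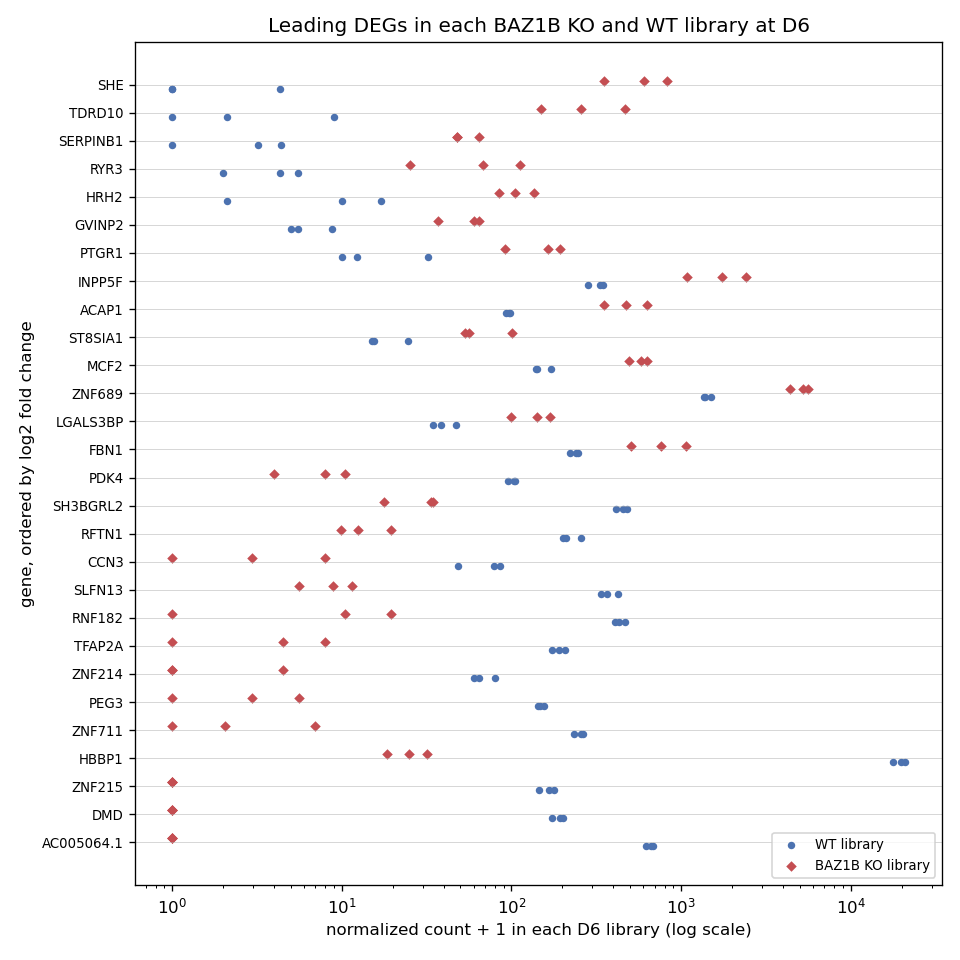
Normalized read count plus 1 (log axis) of the leading DEGs at D6, with 1 gene per row in order of log2 fold change, red diamonds for KO and blue circles for WT libraries. For each gene all 3 KO points lie on 1 side of all 3 WT points.

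The WT level of many of these genes differed between the WT libraries of the series. The WT libraries of the H2A.X experiment are in a table of their own, and the sources used here do not state whether they came from the same subclones, so the levels are set side by side in CPM, counts scaled to a common library total, with no test. SHE lay at 14.6 and 16.1 CPM in those WT libraries, at 0.0891, 0 and 0 in the WT libraries here and at 9.28, 22.1 and 16.1 in BAZ1B KO. DMD, ZNF215, RNF182 and AC005064.1 were at 0 in both of those WT libraries. HBBP1 was at 28.6 and 28.8 CPM there, at 472 to 559 CPM in WT here and below 1 CPM in BAZ1B KO. Of the 85 lower DEGs, 55 (64.7%) lay nearer to BAZ1B KO than to the WT of this comparison in those libraries, against 46.9% of all tested genes, and of the 19 higher DEGs 8 (42.1%) did. For a gene that differs among WT libraries in this way, subclone and genotype cannot be told apart.

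Some DEGs lay close together in the genome. Of 97 DEGs with an annotated position, 11 had the start of another DEG within 100000 bp, and all 11 changed in the same direction as that neighbour. The same shares over all tested genes were not computed, so whether DEGs lie together more often than other genes was not tested. HBBP1 and HBG1, which lie 6320 bp apart in the beta globin cluster, both fell. The ZNF215 and ZNF214 genes on chromosome 11 overlap at their 3′ ends, and ZNF214 had 0, 3.48 and 0 reads in KO and 63.6, 79.2 and 59.4 in WT. TFAP2A fell with its antisense transcript TFAP2A-AS1, which had 1 read over the KO and 55 over the WT libraries. Whether the counting used strand is not settled by the sources used here. Reads of overlapping genes on opposite strands may thus not be told apart in this pair or in ZNF214 and ZNF215. The same holds for ZNF137P and ZNF83 and for CA1 and CA3, described below, and where SHE and TDRD10 overlap.

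A cluster of zinc finger genes on chromosome 19 held both directions. ZNF701 fell from 187 ± 13.7 to 32.0 ± 9.86 reads (SD, n = 3), its neighbour ZNF137P from 47.7 ± 7.92 to 4.28 ± 3.76, and ZNF83 from 261 ± 32.2 to 79.3 ± 14.6. ZNF160, in the same cluster, fell from 416 ± 37.3 to 83.9 ± 8.99. ZNF320, between ZNF83 and ZNF160, had no read in WT and 26.8, 11.6 and 26.2 in KO, at least 20.3-fold higher. ZNF600, ZNF28 and ZNF468, which lie between ZNF83 and ZNF320, were not called, with log2 fold changes of 0.02, 0.14 and -0.01. Across 354 tested genes with a ZNF symbol, 20 (5.65%) were called higher and 35 (9.89%) lower, against 6.87% and 5.97% of all tested genes. The median log2 fold change was -0.01. The higher count was 12 without the second and 13 without the third WT library.

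**Figure D3:**
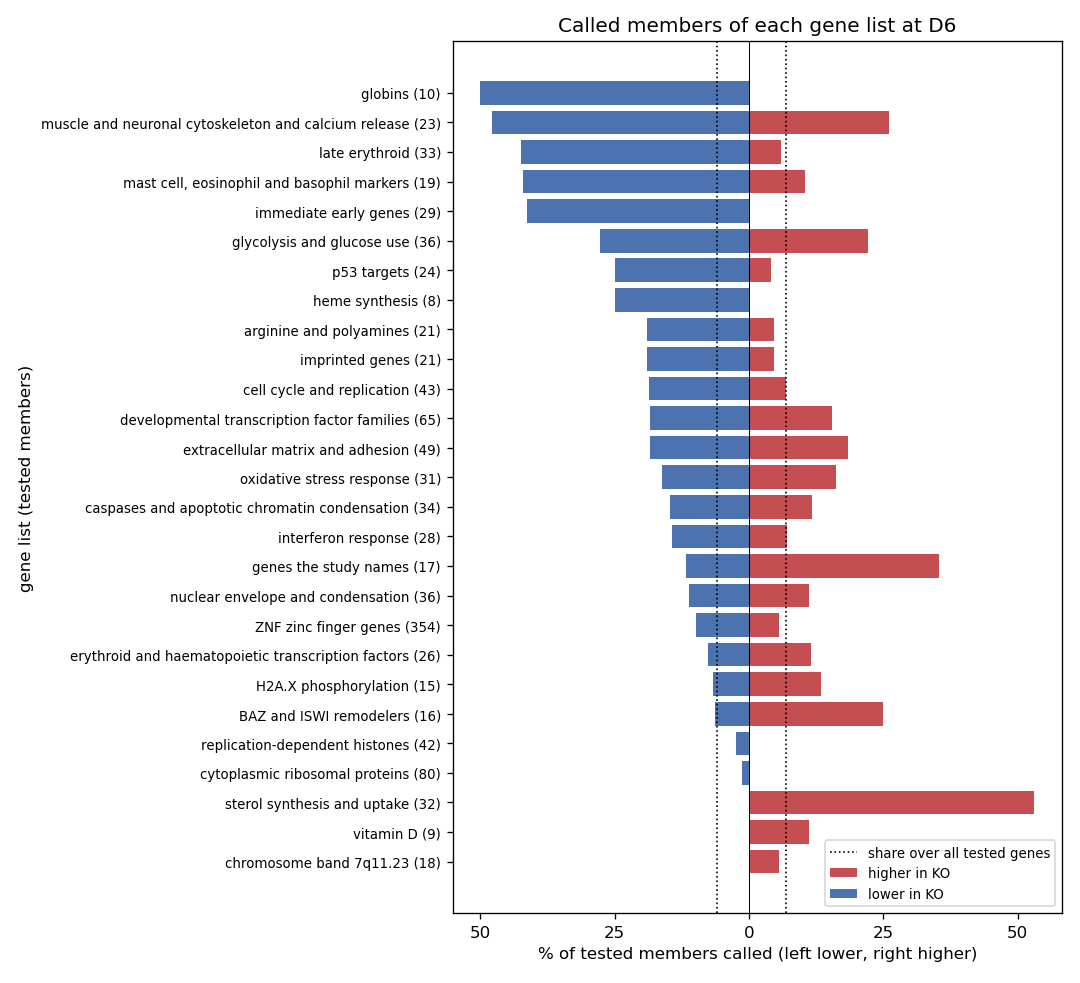
Members called higher (right) and lower (left) in BAZ1B KO at D6 in each gene list, as a percentage of its tested genes (x axis), for lists with 8 or more (number on the y axis) and with dotted lines at the shares over all genes. The sterol list stands out on the higher side (53.1%), and the globin, muscle (47.8%), late erythroid (42.4%), mast cell (42.1%) and immediate early (41.4%) lists on the lower side. The lists were fixed with earlier results of these data known, so the shares are descriptive.

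Part of the globin transcripts were lower in the KO libraries, with the largest folds in the fetal gamma chains. Of 10 tested globin genes, counting the alpha chain chaperone AHSP, 5 were called lower and none higher. Over all tested genes 5.97% were called lower and 6.87% higher. All 10 globin genes had a negative log2 fold change (median -0.56). HBG2, a gamma chain gene, had 167, 94.0 and 173 reads in KO and 1052, 946 and 1247 in WT (-2.90 ± 0.311, adjusted p = 8.22e-05). HBG1, its near copy, had 3.96, 0 and 1.05 in KO and 35.7, 31.7 and 27.2 in WT (-4.07 ± 0.553, adjusted p = 0.000863). Reads may be split between HBG1 and HBG2, and between HBA1 and HBA2, whose sequences are nearly identical. HBA1, an alpha chain gene, had 70267, 78811 and 86306 in KO and 100404, 91409 and 110346 in WT (-0.36 ± 0.0865, adjusted p = 0.0154). HBA2 (-0.42 ± 0.117, adjusted p = 0.0313) and HBM (-0.69 ± 0.171, adjusted p = 0.0183) differed in the same direction without overlap of the groups. The calls of HBA1, HBA2 and HBM were lost without the third WT library (adjusted p = 0.077, 0.142 and 0.0943), and those of HBA2 and HBM also without the first KO library (0.0955 and 0.0545). That of HBA2 was lost without the first WT library too (0.0827). The count of lower globins was thereby 2 without the third WT library and 3 without the first KO library. HBB, the adult beta chain, had 520284, 578425 and 589865 in KO and 686360, 636318 and 745571 in WT, and HBD, the delta chain, had 7532, 28811 and 25875 in KO and 48918, 38546 and 59167 in WT. Neither passed the test (-0.29 ± 0.112, adjusted p = 0.111, and -1.24 ± 0.437, adjusted p = 0.0859), although the groups did not overlap in either. With the D6 libraries alone HBB was called (adjusted p = 0.0221), and HBZ, the embryonic zeta chain, which did not pass the test here (-0.97 ± 0.321, adjusted p = 0.0683), was called by DESeq2 (adjusted p = 0.0243). With no filter on low counts HBB, HBD and HBZ were all called, which raised the count of lower globins to 8. The HBD gene body contains HBBP1 in the annotation, and how reads in the shared stretch were counted was not tested. Globin genes took 1.639 to 1.864% of the counts in KO and 2.113 to 2.489% in WT.

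Late erythroid genes were called lower more often than higher, while GATA1 and TAL1, which define the lineage, were not called. Of 33 tested late erythroid genes, 14 (42.4%) were called lower and 2 (6.06%) higher, against 5.97% and 6.87% of all tested genes. The median was -0.17. The lower count was 10 without the third WT library and 18 with no filter on low counts. CA2, carbonic anhydrase 2, had 42030, 56314 and 50784 reads in KO and 100203, 94162 and 112681 in WT (-1.04 ± 0.0923, adjusted p = 1.97e-05). BPGM, which makes the bisphosphoglycerate that lowers the oxygen affinity of hemoglobin, had 1801, 1841 and 1994 in KO and 2909, 2853 and 3340 in WT (-0.69 ± 0.0689, adjusted p = 4.42e-05). BCL2L1, which encodes the survival factor BCL-XL, had 6103, 5955 and 6272 in KO and 8784, 8517 and 9390 in WT (-0.54 ± 0.0819, adjusted p = 0.000915). For each of these 3 genes every KO library lay below every WT library. RHCE, a blood group carrier, fell by 1.13 on the log2 scale (adjusted p = 0.00307), and DMTN, the skeleton protein dematin, fell by 0.36 (adjusted p = 0.00121). SLC4A1, the anion exchanger of the red cell membrane, was called lower (-0.77 ± 0.191, adjusted p = 0.0185), but not without the third WT library (adjusted p = 0.0895) or the first KO library (adjusted p = 0.0503). BNIP3L, the mitophagy receptor that clears mitochondria from reticulocytes, rose by 0.46 ± 0.064 (adjusted p = 0.000495), against the direction of the others.

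Near CA2 on chromosome 8 lies CA3, the muscle carbonic anhydrase, which was a DEG with 1403, 1007 and 1298 reads in KO and 3930, 3513 and 4852 in WT (-1.73 ± 0.158, adjusted p = 2.4e-05). CA1, which lies next to CA13, overlaps the start of CA3 on the opposite strand. With strand use unsettled, reads of CA1 and CA3 may not be told apart there. CA1 had means of 754000 reads in KO and 877000 in WT, far above those of CA3. It fell with a log2 fold change of -0.22 ± 0.0491 (adjusted p = 0.0108), and CA13 had no call at under 10 reads in either group.

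Heme synthesis genes moved by small amounts, mostly downward. Of the 8 enzymes, 2 (25%) were called lower and none higher, against 5.97% and 6.87% of all tested genes. A negative log2 fold change was seen for 7 of the 8, and the median was -0.22. UROS (-0.24 ± 0.0637, adjusted p = 0.0235) and UROD (-0.20 ± 0.0502, adjusted p = 0.0193) were the 2 called. Both calls were lost without the third WT library (adjusted p = 0.0963 and 0.0909) or the first KO library (0.07 and 0.0654). That of UROS was also lost without the second KO library (0.0694). ALAS2, the rate-limiting erythroid enzyme, had 51327, 60471 and 69705 reads in KO and 68914, 65169 and 80508 in WT, which overlapped (-0.24 ± 0.12, adjusted p = 0.224). ALAS2 was called lower with no filter on low counts (adjusted p = 0.000102) and with a replicate block on D6 alone (0.0445).

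Among 26 erythroid and haematopoietic transcription factors, 3 (11.5%) were called higher and 2 (7.69%) lower, against 6.87% and 5.97% of all tested genes. GATA1, the master regulator of the lineage, had 12243, 12470 and 12494 reads in KO and 12256, 12027 and 12675 in WT (0.01 ± 0.0465, adjusted p = 0.927), and TAL1 differed by -0.06 ± 0.0604 (adjusted p = 0.606). MYB, a progenitor factor that declines with maturation, had 8785, 7898 and 8011 in KO and 6038, 5760 and 5053 in WT (0.55 ± 0.0625, adjusted p = 0.000113). RUNX1 had 2061, 2118 and 1960 in KO and 1458, 1543 and 1235 in WT (0.54 ± 0.0842, adjusted p = 0.00119). The KO values of both lay above every WT value, as did those of ZFPM1, the GATA1 cofactor FOG1 (0.30 ± 0.0606, adjusted p = 0.00614). SOX6, which silences embryonic globin and promotes erythroid maturation, had 1155, 1174 and 1407 in KO and 2329, 2315 and 2622 in WT (-0.96 ± 0.13, adjusted p = 0.000429), and KLF13 fell by 0.34 (adjusted p = 0.00823).

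Some genes of the apoptotic machinery that erythroid cells use to condense chromatin differed by modest amounts. Of 34 tested genes, 4 (11.8%) were called higher and 5 (14.7%) lower, against 6.87% and 5.97% of all tested genes, with a median of 0.04. The lower count was 2 without the third KO or the second WT library and 3 without the first or the third WT library. Of the caspases, CASP6, which cleaves lamins, had 1149, 1177 and 1200 reads in KO and 946, 945 and 803 in WT (0.39 ± 0.0628, adjusted p = 0.00139). All KO values of CASP6 exceeded all WT values. The calls of CASP10 (0.30) and of the nuclease ENDOG (0.24) were lost when single libraries were left out, with a highest adjusted p of 0.13 and 0.15. The survival factor MCL1 fell by 0.21 ± 0.0323 (adjusted p = 0.0012), PMAIP1, which opposes it, fell by 0.39 ± 0.0948 (adjusted p = 0.0157), and CYCS, cytochrome c, fell by 0.19 ± 0.0439 (adjusted p = 0.0141). The calls of PMAIP1 and CYCS did not survive without the third KO library (adjusted p = 0.0705 and 0.0633) or without the second WT library (0.0624 and 0.0656). That of PMAIP1 was lost without the first KO or the third WT library as well (0.0546 and 0.0622), and that of CYCS without the first WT library (0.074). BAX was called lower as well (-0.14 ± 0.0393, adjusted p = 0.0325), a call lost without the second or the third KO or any 1 WT library, with adjusted p values up to 0.0943.

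H2AFX, the gene of the BAZ1B substrate H2A.X, had 3618, 4000 and 3355 reads in KO and 4008, 3821 and 4135 in WT. The groups overlapped, and the difference did not pass the test (-0.13 ± 0.058, adjusted p = 0.192), except without the second KO library (adjusted p = 0.025). Of 15 genes that write, erase or read H2A.X phosphorylation, 2 (13.3%) were called higher and 1 (6.67%) lower. Over all tested genes 6.87% were called higher and 5.97% lower. TP53BP1 (0.30 ± 0.0686, adjusted p = 0.0111), which binds damaged chromatin, and PPP4C (0.20 ± 0.0494, adjusted p = 0.0185), a phosphatase, were called higher. RNF168, a ubiquitin ligase for H2A, was called lower (-0.31 ± 0.0524, adjusted p = 0.00179). The calls of TP53BP1 and PPP4C were lost without the third WT library (adjusted p = 0.051 and 0.0745), that of PPP4C also without the first KO or the second WT library (0.0736 and 0.0829).

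The closest relative of BAZ1B moved the other way. BAZ1A, or ACF1, which pairs with the same ISWI ATPase, had 6872, 6636 and 7071 reads in KO and 3823, 3945 and 3751 in WT (0.84 ± 0.0371, adjusted p = 4.69e-08). All KO values lay well above all WT values, and at D0 the log2 fold change was 0.80 (adjusted p = 7.93e-08). Of 16 tested ISWI and BAZ genes, 4 (25%) were called higher and 1 (6.25%) lower, against 6.87% and 5.97% of all tested genes. SMARCA5, the shared ATPase, rose by 0.15 ± 0.0361 (adjusted p = 0.0166) and POLE3, a subunit of the CHRAC complex, rose by 0.17 ± 0.0347 (adjusted p = 0.00588). MYO1C, nuclear myosin of the B-WICH complex, rose by 0.16 ± 0.0401 (adjusted p = 0.0174), whereas BAZ2B fell by 0.38 ± 0.088 (adjusted p = 0.0127). The call of SMARCA5 was lost without the third KO library or without the second or the third WT library, with adjusted p values of 0.06 to 0.072. That of MYO1C was lost without these or the second KO library, with adjusted p values of 0.0687 to 0.102.

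Among 36 genes of the nuclear envelope and of chromatin condensation, 4 were called higher and 4 lower (11.1% each, against 6.87% and 5.97% of all tested genes). H1F0, the linker histone of non-dividing cells, had 501, 1017 and 679 reads in KO and 218, 269 and 228 in WT (1.62 ± 0.261, adjusted p = 0.00138). LMNA, which encodes the A-type lamins, had 21613, 21989 and 20515 in KO and 18191, 16676 and 16997 in WT (0.31 ± 0.0437, adjusted p = 0.000621). The KO values of both lay above all WT values. HDAC5, a histone deacetylase, fell by 0.47 ± 0.0868 (adjusted p = 0.0034), and SYNE1, a nesprin, fell by 2.61 at under 20 reads in every library. Of 42 replication-dependent histone genes, whose mRNAs lack a poly(A) tail, HIST1H1C was called lower (-0.81 ± 0.0909, adjusted p = 0.000109) and none higher.

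Genes of sterol and fatty acid synthesis were the list with the largest share of higher members. Of 32 tested genes, 17 (53.1%) were called higher and none lower, against 6.87% and 5.97% of all tested genes. A positive log2 fold change was seen for 31, and the median was 0.27. FASN, fatty acid synthase, had 35114, 56868 and 52055 in KO and 25769, 23326 and 27956 in WT (0.90 ± 0.132, adjusted p = 0.000751). LSS, lanosterol synthase, had 6156, 7565 and 6503 in KO and 4408, 4247 and 4803 in WT (0.59 ± 0.0719, adjusted p = 0.0002). Every KO value of these genes exceeded every WT value, and so it was for EBP, a sterol isomerase, with 1144, 1300 and 1214 in KO and 915, 858 and 923 in WT (0.44 ± 0.0593, adjusted p = 0.000413). HMGCS1, which acts early in the pathway, rose by 0.40 ± 0.0749 (adjusted p = 0.00348) and DHCR7, a final step of the pathway, rose by 0.38 ± 0.0561 (adjusted p = 0.000784). Of the regulators, SREBF1 was called higher (0.59 ± 0.111, adjusted p = 0.00366), and SREBF2, the main activator of cholesterol synthesis, had a log2 fold change of -0.03 ± 0.0516 (adjusted p = 0.772). APOE, a lipid carrier, rose from 127 ± 34.5 to 470 ± 138 reads (SD, n = 3; 1.88 ± 0.325, adjusted p = 0.00224). At D0 none of the 32 genes was called and the median was 0.05.

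The promoters of LSS and EBP are shown as members that moved together, with CCAAT, the box bound by NF-Y, in capitals on either strand (it reads ATTGG on the other). The LSS window is chr21:46228725-46229024, read on the minus strand, and the EBP window chrX:48521558-48521857, read on the plus strand (RefSeq, GRCh38.p14). The LSS window holds 1 such box and the EBP window 3, and 37.1% of the 9800 promoters of tested genes hold at least 1. Only 25 of the 32 sterol genes (78.1%) had a promoter sequence, too few to describe the list.

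LSS: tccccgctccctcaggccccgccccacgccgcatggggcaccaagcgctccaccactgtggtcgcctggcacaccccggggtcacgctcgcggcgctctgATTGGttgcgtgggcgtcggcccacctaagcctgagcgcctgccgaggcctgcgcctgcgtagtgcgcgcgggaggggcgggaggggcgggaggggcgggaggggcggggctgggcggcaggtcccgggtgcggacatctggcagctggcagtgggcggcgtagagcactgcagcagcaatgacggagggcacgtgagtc
EBP: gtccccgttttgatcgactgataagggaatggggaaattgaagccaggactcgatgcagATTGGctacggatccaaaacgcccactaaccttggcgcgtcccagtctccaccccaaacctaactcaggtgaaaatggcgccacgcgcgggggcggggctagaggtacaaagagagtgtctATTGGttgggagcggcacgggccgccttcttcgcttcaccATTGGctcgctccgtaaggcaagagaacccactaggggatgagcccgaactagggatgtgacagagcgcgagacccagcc

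Many immediate early genes, the first response to growth factor signalling, were lower in KO. Of 29 tested genes, 12 (41.4%) were called lower, none higher and 17 neither. Over all tested genes 5.97% were called lower and 6.87% higher. A positive log2 fold change was seen for 4 of the 29, and the median was -0.40. EGR1, a zinc finger factor, had 17.8, 18.6 and 17.8 reads in KO and 88.2, 76.9 and 41.3 in WT (-1.91 ± 0.295, adjusted p = 0.00107). FOSL1, an AP-1 subunit, had 79.3, 67.3 and 71.2 in KO and 196, 204 and 156 in WT (-1.35 ± 0.116, adjusted p = 1.56e-05). CEBPD, a factor of acute responses and myeloid cells, had 4.95, 8.12 and 5.23 in KO and 30.1, 40.7 and 49.4 in WT (-2.71 ± 0.3, adjusted p = 9.82e-05), and was the DEG of this list. No KO value of these genes reached the lowest WT value. ETV4, an ERK target, fell by 3.54 ± 0.73 (adjusted p = 0.00663) and SPRY4, an inhibitor of the pathway, fell by 2.39 ± 0.523 (adjusted p = 0.00955), both at low levels. DUSP6, the ERK phosphatase, fell by 0.77 ± 0.193 (adjusted p = 0.0199) and JUN by 0.76 ± 0.177 (adjusted p = 0.0138). The call of DUSP6 was lost without the third KO library (adjusted p = 0.0813) or the first or second WT library (0.0683 and 0.0673), and that of JUN without the second WT library (adjusted p = 0.0623). At D0 none of the 29 genes was called and the median was 0.06.

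**Figure D4:**
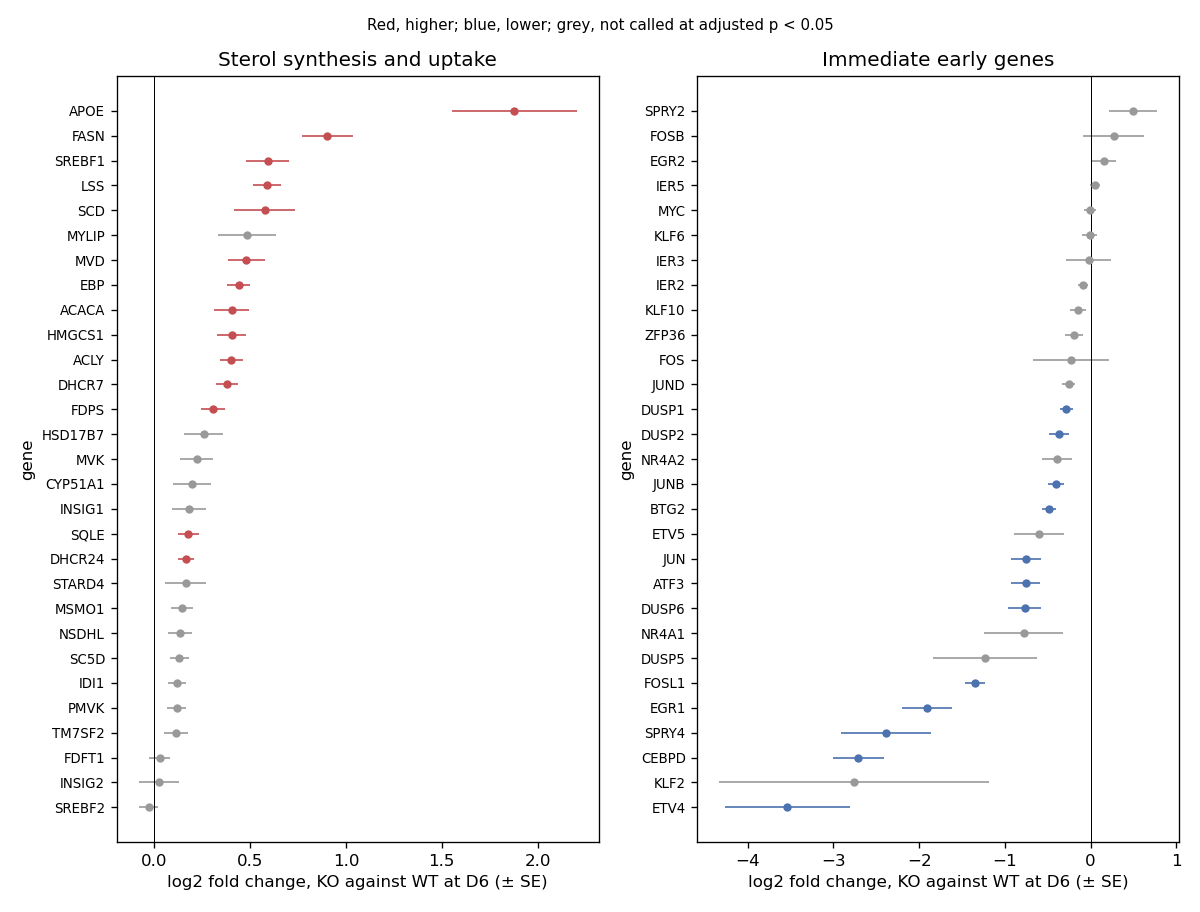
Log2 fold change of BAZ1B KO against WT at D6 (x axis) for genes of the sterol and the immediate early lists, with SE bars, red for genes called higher, blue for genes called lower and grey for the others. All called sterol genes drawn lie to the right of 0 and all 12 called immediate early genes to the left.

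Genes of glucose use were called in both directions. Of 36 genes, 8 (22.2%) were called higher and 10 (27.8%) lower, against 6.87% and 5.97% of all tested genes, with a median of 0.05. The higher count was 5 without the second KO, the second WT or the third WT library. The 2 pyruvate kinase genes moved in opposite ways. PKM, the gene used by most tissues, had 172, 92.8 and 87.9 reads in KO and 931, 720 and 706 in WT (-2.72 ± 0.223, adjusted p = 1.02e-05), whereas PKLR, that of erythrocytes and liver, had 38164, 39052 and 38430 in KO and 28649, 26852 and 28538 in WT (0.46 ± 0.0519, adjusted p = 0.000109). EPAS1, a hypoxia-inducible factor, had 225, 185 and 131 in KO and 369, 359 and 380 in WT (-1.03 ± 0.128, adjusted p = 0.00022). The glucose carriers SLC2A1 (-0.47 ± 0.0875, adjusted p = 0.0037) and SLC2A3 (-2.60 ± 0.344, adjusted p = 0.000357) both fell. PFKFB2, a regulator of glycolysis, had 23.8, 403 and 202 in KO and 3.35, 2.26 and 6.05 in WT (5.67 ± 1.47, adjusted p = 0.0223). Its call was lost without the second KO library or without any 1 WT library, with adjusted p values of 0.063 to 0.0853.

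Both arginase genes were lower in KO. Of 21 tested genes of arginine and polyamine metabolism, 4 (19%) were called lower and 1 (4.76%) higher, against 5.97% and 6.87% of all tested genes. ARG2, the mitochondrial arginase, had 150, 147 and 138 reads in KO and 444, 467 and 558 in WT (-1.76 ± 0.128, adjusted p = 3.52e-06), and ARG1, the cytosolic arginase, had 22.8, 23.2 and 15.7 in KO and 79.2, 98.4 and 137 in WT (-2.35 ± 0.316, adjusted p = 0.0004). KO and WT were separate for both. KYNU, an enzyme of tryptophan breakdown placed in the same list, fell by 4.21 ± 0.472 (adjusted p = 0.000105), and SMS, spermine synthase, rose by 0.27 ± 0.045 (adjusted p = 0.002).

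Of 31 genes of the oxidative stress response, 5 were called higher and 5 lower (16.1% each, against 6.87% and 5.97% of all tested genes). FTL, the ferritin light chain, had 102869, 104405 and 104360 reads in KO and 124455, 119392 and 119921 in WT (-0.22 ± 0.0342, adjusted p = 0.001). SLC7A11, the cystine carrier, had 489, 767 and 641 in KO and 1138, 1246 and 1315 in WT (-0.97 ± 0.127, adjusted p = 0.000342), and HMOX1, heme oxygenase 1, fell by 1.67 ± 0.32 (adjusted p = 0.00422). SELENON, a selenoprotein of the endoplasmic reticulum, had 430, 756 and 519 in KO and 239, 256 and 257 in WT (1.18 ± 0.16, adjusted p = 0.000446), and GPX4, which detoxifies lipid peroxides, rose by 0.41 ± 0.0881 (adjusted p = 0.00835).

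Muscle and cytoskeletal genes were among the largest differences. Of 23 tested genes, 11 (47.8%) were called lower and 6 (26.1%) higher, against 5.97% and 6.87% of all tested genes. DEGs numbered 8, and the median of -0.12 became -0.93 without the first KO library. The list was fixed with earlier results of these data known, so its excess over all genes is not independent evidence. Next to DMD, which was absent in KO, SNTG1, a syntrophin of the same complex, had 0.991, 3.48 and 0 reads in KO and 33.5, 28.3 and 38.3 in WT (-4.44 ± 0.566, adjusted p = 0.000273). MYLK3, the cardiac myosin kinase, had 15.9, 37.1 and 17.8 in KO and 276, 263 and 226 in WT (-3.45 ± 0.278, adjusted p = 9.3e-06), and COLQ, which anchors acetylcholinesterase, fell by 2.82 ± 0.298 (adjusted p = 7.42e-05). TNS3, a focal adhesion protein, was higher in KO with 5334, 4287 and 5442 against 3402, 3164 and 3554 (0.57 ± 0.0775, adjusted p = 0.000414), as was RYR3, given above.

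Matrix and adhesion genes were called as often in each direction, 9 higher and 9 lower of 49 (18.4% each, against 6.87% and 5.97% of all tested genes). The higher count was 5 without the second WT library. RELN, the secreted glycoprotein reelin, had 42397, 36847 and 48788 reads in KO and 17891, 18074 and 17735 in WT (1.25 ± 0.0785, adjusted p = 9.45e-07). ITGBL1 had 1487, 1346 and 1456 in KO and 558, 559 and 594 in WT (1.33 ± 0.0597, adjusted p = 4.69e-08), and NECTIN1, an adhesion receptor, rose by 1.73 ± 0.178 (adjusted p = 5.94e-05). LAMC3, a laminin chain, had 13.9, 15.1 and 7.33 in KO and 195, 157 and 161 in WT (-3.82 ± 0.254, adjusted p = 1.51e-06). COL2A1, the cartilage collagen, had 213, 173 and 292 in KO and 799, 668 and 940 in WT (-1.83 ± 0.272, adjusted p = 0.000842), and VASH1 had 1 read over KO and 78 over WT. All groups named here were separate.

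Of 65 genes in developmental transcription factor families, 10 (15.4%) were called higher and 12 (18.5%) lower, against 6.87% and 5.97% of all tested genes. Without the third WT library 6 were called higher. Beside TFAP2A and PITX1, ZFPM2, the cardiac cofactor FOG2, had 43.6, 29.0 and 39.8 reads in KO and 247, 260 and 245 in WT (-2.73 ± 0.197, adjusted p = 3.24e-06), and POU4F1, a factor of sensory neurons, had 30.7, 24.4 and 27.2 in KO and 94.9, 88.3 and 86.7 in WT (-1.70 ± 0.174, adjusted p = 5.58e-05). SOX21 was higher in KO with 747, 867 and 801 against 469, 476 and 419 (0.82 ± 0.0841, adjusted p = 5.6e-05). Of 21 imprinted genes, 4 (19%) were called lower and 1 (4.76%) higher. PLAGL1, a zinc finger gene, fell from 1355 ± 79.3 to 455 ± 133 reads (SD, n = 3; adjusted p = 2.36e-05), PHLDA2 fell by 0.52 on the log2 scale (adjusted p = 0.046, up to 0.205 with 1 library left out), and ZNF597 rose by 0.65 (adjusted p = 0.00276).

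Of 24 p53 targets, 6 (25%) were called lower and 1 (4.17%) higher, against 5.97% and 6.87% of all tested genes. FAS, the death receptor, had 71.3, 70.8 and 72.2 reads in KO and 113, 114 and 117 in WT (-0.68 ± 0.108, adjusted p = 0.00127), SESN2 fell by 0.71 ± 0.118 (adjusted p = 0.00183), and BTG2, also an immediate early gene, fell by 0.49 ± 0.0801 (adjusted p = 0.00158). CDKN1A, the CDK inhibitor p21, fell by 2.19 ± 0.395 (adjusted p = 0.00294) at low levels, with KO and WT means of 9.50 and 43.8 reads. Of 43 cell cycle genes, 8 (18.6%) were called lower and 3 (6.98%) higher, among the lower ones CCND3, the cyclin that sets erythroid division number, with 12948, 15597 and 16182 reads in KO and 21466, 20655 and 24358 in WT (-0.57 ± 0.0862, adjusted p = 0.000901). The replication factor ORC1 fell by 0.35 ± 0.0427 (adjusted p = 0.000208) and CDK1 by 0.23 ± 0.0354 (adjusted p = 0.000895). Of 28 interferon response genes, 4 (14.3%) were called lower and 2 (7.14%) higher, with RSAD2, an antiviral enzyme, at 264, 232 and 284 in KO and 614, 655 and 800 in WT (-1.41 ± 0.121, adjusted p = 1.48e-05). Of 80 cytoplasmic ribosomal protein genes, 1 was called, RPL35 (-0.12 ± 0.0368, adjusted p = 0.0455), which was lost without any 1 library (adjusted p up to 0.18). Of 9 vitamin D genes, TOP2B was called (0.13 ± 0.0358, adjusted p = 0.0284, up to 0.126 with 1 library left out), and the receptor and its enzymes were not.

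Of the markers of other blood lineages, some of mast cells and of megakaryocytes differed between the genotypes. Of 28 markers of mast cells, eosinophils and basophils, 19 were tested, of which 8 (42.1%) were called lower and 2 (10.5%) higher, against 5.97% and 6.87% of all tested genes, and 6 of the 28 were at 0 in all 6 libraries. The median of -0.82 became -1.68 and the lower count 12 without the first KO library. Their summed level was 10500 to 20400 reads in KO and 12200 to 13700 in WT. The defining markers FCER1A, CPA3, MS4A2, CLC and EPX stayed below 2 reads in every library. The tryptase genes TPSAB1 and TPSB2, near copies of each other, were present in both genotypes and did not pass the test (adjusted p = 0.0795 and 0.239), but without the first KO library both were called (adjusted p = 0.000141 and 0.000219). ANXA1, annexin A1, had 65.4, 16.2 and 8.37 reads in KO and 575, 403 and 415 in WT (-3.90 ± 0.484, adjusted p = 0.000222), and GCSAML had 63.4, 20.9 and 22.0 in KO and 276, 261 and 239 in WT (-2.83 ± 0.265, adjusted p = 2.89e-05). HPGDS, the prostaglandin D synthase of mast cells, had 1 read over KO and 136 over WT, a ratio of WT to KO of 139 (exact 95% counting interval 24.5 to 5516). KIT, the SCF receptor, which erythroid progenitors also carry, had 12697, 6807 and 8696 in KO and 6438, 6246 and 5869 in WT (0.60 ± 0.157, adjusted p = 0.0226), and its call was lost without any 1 WT library (adjusted p up to 0.0927). In bulk samples fewer cells of a type and less RNA per cell cannot be told apart.

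Of 18 megakaryocyte markers, 3 were tested and 2 were called lower, ITGA2B, the platelet integrin (-1.59 ± 0.328, adjusted p = 0.0066), and TUBB1, the platelet tubulin (-1.31 ± 0.174, adjusted p = 0.000364). Their summed level was 251 to 471 reads in KO and 855 to 980 in WT, and 9 of the 18, PF4, PPBP and GP1BA among them, were at 0 in all libraries. Of the neutrophil and monocyte markers 5 were tested and of the stem and progenitor markers 4, and none was called, with summed levels of 24.1 to 37.6 and 3210 to 6950 reads in KO and of 27.2 to 31.2 and 6840 to 7130 in WT. Of the 12 stem and progenitor markers 6 were at 0 in all libraries, PROM1 among them. CD34 reached at most 8.12 reads in any library, FLT3 1.12 and HLF 56.9, so other members made up most of the sum. Stroma markers summed to 8.92 to 12.8 reads in KO and 12.4 to 22.2 in WT, and none passed the filter on low counts. The part of such cells in the results above was not tested.

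The difference at D6 was then set beside that at D0. At D0 539 genes (3.88%) were called, and the KO effect differed between the days for 343 genes (2.47%), 219 of them more positive and 124 more negative at D6. Without the third KO or any 1 WT library these counts were 93 to 133 and 61 to 78, both lowest without the second WT library. Of the 19 DEGs higher at D6, 16 were called in the same direction at D0, and of the 85 lower DEGs 58 were, while none was called in the opposite direction. HBBP1, DMD, ZNF215, ZNF711 and SLFN13 were called lower and SHE higher in expanding cells too, where HBBP1 had a mean of 14.9 reads in KO and 8273 in WT and SHE 889 and 0. The remaining 3 higher and 27 lower DEGs were not called at D0, and for 5 of the 19 and 23 of the 85 DEGs the effect itself differed between the days.

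Some genes that differed at D6 had close means at D0. PKM had equal means at D0, 28637 reads in KO and 28620 in WT, and was shut down in both genotypes by D6, to 118 in KO and 786 in WT. EGR1 went from 1341 and 1216 to 18.1 and 68.8, GCSAML from 1866 and 2021 to 35.4 and 259, and ANXA1 from 1287 and 1087 to 30.0 and 464. Each of these genes, which expanding cells use, was lower at D6 in KO than in WT, and the difference of the effects passed the test (adjusted p = 0.000468 for PKM, 0.00695 for EGR1, 0.00121 for GCSAML and 0.00392 for ANXA1). Other genes were induced less in KO. BPGM rose from 545 and 515 to 1879 in KO and 3034 in WT, and CA2 from 23685 and 26087 to 49710 and 102348 (adjusted p = 0.0028 and 0.00393). MYB fell less in KO, from 15365 and 13602 to 8231 and 5617, and FASN rose more in KO, from 22968 and 23237 to 48012 and 25684 (adjusted p = 0.0436 and 0.0241). HBB, whose KO mean was the higher at D0 (112632 against 77081 reads, adjusted p = 0.0155), reached 562858 in KO and 689416 in WT at D6, and the effects differed (adjusted p = 0.0181). SLC4A1 differed more at D0, with 164 reads in KO and 1206 in WT, than at D6, with 80179 and 136732 (adjusted p = 0.0053).

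**Figure D5:**
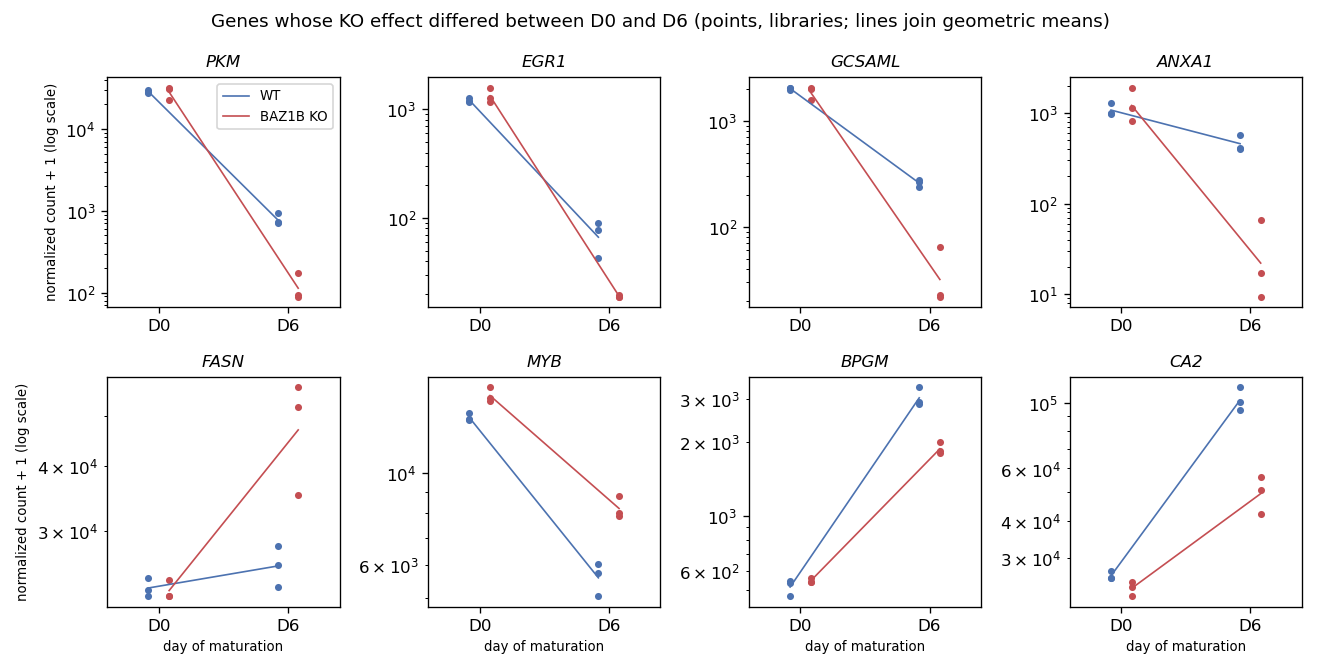
Normalized read count plus 1 (log axis) at D0 and D6 (x axis) in BAZ1B KO (red) and WT (blue) for 8 genes whose KO effect differed between the days, with points for libraries and lines joining geometric means. The values of PKM, EGR1, GCSAML and ANXA1 are close at D0 and lower in KO at D6, and those of MYB and FASN are higher in KO at D6.

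A list of 17 genes held those the study names for its RNA-Seq results in either experiment, and STAT5A. Genes named for the BAZ1B libraries are not independent evidence here. Of the 17, 6 were called higher at D6 and 2 lower. TBX20, a cardiac factor, had 63.4, 31.3 and 31.4 reads in KO and 6.70, 10.2 and 15.1 in WT (1.96 ± 0.353, adjusted p = 0.00291). SOX4, a factor of progenitors, had between 23 and 25.5 in KO and 5.58, 7.92 and 4.03 in WT (2.06 ± 0.585, adjusted p = 0.0361), and lost its call without any 1 library, with adjusted p values up to 0.129. MFSD2A, a lipid carrier of the blood-brain barrier, had 25.8, 131 and 86.9 in KO and 29.0, 20.4 and 24.2 in WT, overlapped, and was called by a small margin (1.71 ± 0.47, adjusted p = 0.0304), with an adjusted p of 0.121 without the second KO library and of 0.0673 to 0.106 without the third KO library or any 1 WT library. CYP27B1, which activates vitamin D, was at 54.5, 16.2 and 39.8 in KO and 7.81, 7.92 and 21.2 in WT and did not pass the test (1.56 ± 0.589, adjusted p = 0.107), although it was called by DESeq2 (adjusted p = 0.0436) and with no filter on low counts (adjusted p = 5.98e-05). GATA2, STAT5A and STAT5B were not called (adjusted p = 0.822, 0.505 and 0.517), but GATA2 was without the first KO library (adjusted p = 0.0294) and others of these genes are described above.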

How the data were processed

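RNA-Seq of BAZ1B KO and WT HUDEP-2 cells, with 3 libraries of each genotype at D0 and 3 at D6, was analysed. The authors deposited raw read counts per gene, 1 column per library, without normalization. The submitters' processing notes name STAR 2.7.0f, Subread 1.6.4 with featureCounts, DESeq2 1.22.1 and hg38. The paper's methods and the labels name different library kits, 1 stranded and 1 not, so strand use is unsettled.

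Genes were filtered (filterByExpr of edgeR 4.0.16, minimum count 10, minimum total 15), normalized by TMM and fitted with a quasi-likelihood model in R 4.3.3, with 1 coefficient per genotype and day over the 12 libraries. Tests were two-sided. The floor for a group without reads was 3 reads. Intervals on few reads cover counting error only. The p values rest on the spread between libraries of the same genotype and day, pooled over D0 and D6, and counting error adds to it at few reads. Libraries of both days were treated as independent, although those of the same genotype and number may share a subclone. The procedure was tested on simulated data. Positions came from GRCh38 annotation for 12105 genes by symbol and 300 by an older symbol, leaving 1474 without. Sequences are from RefSeq. CPM of the H2A.X experiment came from its own table.

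Genes named are BAZ1B, in each direction the 14 DEGs that changed most (no overlap, mean of at least 50), the genes the study names, up to 5 called members of each list with the smallest adjusted p, and all globins. A few genes that fall under it are not reported here. A further 36 were chosen after their values were seen, and genes named in clusters or as markers likewise. Comparison and lists were chosen with earlier results of these data known. Alternatives were DESeq2 1.42.0, upper-quartile normalization, no filter, other cutoffs, globins left out, D6 alone, replicate terms, and leaving out each library.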

Additional observations from a re-analysis of the deposited data

Results flagged for a closer look

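For 48 of 173 named genes, the KO effect at D6 differed from that at D0 by edgeR's test of the interaction (Benjamini-Hochberg adjusted p below 0.05). Over all 13879 genes tested it did for 343 (2.47%). Most named genes were chosen by their difference at D6, and 36 after their values were seen. The 2 counts can therefore not be compared. Values here are the log2 fold change of KO against WT at D6 minus that at D0. Among markers of other blood cells and signalling genes the shift was negative: HPGDS (-4.99), ANXA1 (-4.15), SIGLEC6 (-3.04), GCSAML (-2.71), CST7 (-2.21), SPRY4 (-2.47), CEBPD (-2.45), EGR1 (-2.05) and FOSL1 (-1.20). Metabolic and carrier genes with a negative shift were PKM (-2.72), SLC2A3 (-2.40), ARG2 (-1.53), EPAS1 (-0.99), CA2 (-0.90) and BPGM (-0.77). Others with a negative shift were MTUS1 (-7.52), which had no read in KO at D6, COLQ (-3.18), RSAD2 (-1.5), SESN2 (-0.89), HBB (-0.84), HIST1H1C (-0.67), RNF168 (-0.32), CCNE2 (-0.30), CDK1 (-0.21) and MCL1 (-0.19).

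In the sterol list the shift was positive for FASN (0.92), HMGCS1 (0.62), LSS (0.46), DHCR7 (0.42) and EBP (0.41). It was positive as well for the regulators RUNX1 (0.53), MYB (0.38) and SOX21 (0.57), for the zinc finger gene ZNF689 (1.0) and for PKLR (0.46), CASP6 (0.45), BNIP3L (0.39), LMNA (0.32) and SMS (0.28). LGALS3BP (1.68), MCF2 (1.12), NECTIN1 (1.0), SELENON (0.89), TNS3 (0.52) and ITGBL1 (0.39) completed the genes that were higher in KO at D6 with a larger effect than at D0. PITX1 (5.48), ZFPM2 (2.19) and SLC4A1 (2.11) had positive shifts, with a KO deficit that was smaller at D6 than at D0, and all 3 were lower in KO on both days. PITX1 had no read in KO at D0, so its value, as that of MTUS1, rests on a fitted fold against a group at 0 and is no bound.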

How the results depend on the processing

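All 104 DEGs kept their direction and an adjusted p below 0.05 under each alternative that tested them, and leaving out the globin genes removed HBG1 and HBG2 from the test. The number of DEGs did move. With 19 higher and 85 lower in the reported fit, DESeq2 gave 34 higher, no filter on low counts gave 71 and 181, the D6 libraries alone gave 10 and 52, and the looser cutoffs (adjusted p below 0.05 and absolute log2 fold change above 1) gave 104 and 269. Leaving out 1 library gave 9 to 26 higher DEGs, the lowest without the second WT library, and 45 to 68 lower DEGs, the lowest without the third KO library. Genes called higher numbered 585 to 890 and genes called lower 527 to 761 with 1 library left out, both lowest without the third WT library, against 954 and 828. Upper-quartile normalization gave 812 higher and 960 lower, which turns the larger share to the lower side. The interaction gave 219 more positive and 124 more negative genes. It gave 443 and 257 by DESeq2, 608 and 379 without a filter, and 93 to 234 and 61 to 152 with 1 library left out.

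The numbers shared by KO and WT libraries were not taken as pairs in the reported fit. Same-numbered deviations correlated at 0.0745, -0.0386 and 0.271 over 5634 genes, and other-numbered ones at -0.195 to 0.174. The 3 deviations of a group sum to 0, so these values do not settle whether the numbers pair the libraries. A replicate block over 12 libraries gave 19 higher and 69 lower DEGs, and with D6 alone it gave 37 lower. With the block HBD and CYP27B1 were called over 12 libraries (adjusted p = 0.0324 and 0.0346), and HBB, HBD and HBZ with D6 alone (0.0158, 0.041 and 0.00619), where 8 globins were called lower. A block for each genotype and replicate number over both days gave 426 more positive and 292 more negative interactions. Of the 157 named genes called at an adjusted p below 0.05, 125 stayed below it under each alternative that tested them, and no named gene that was called changed direction. The cause of these shifts was not tested. Genes with few reads limit the DEG counts, as 26 lower and 2 higher DEGs had a mean under 50 reads in the group with more.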

Other observations

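Levels in the WT libraries of the H2A.X experiment, given here as CPM at D6 with no test because that table was made separately, differed from those of the WT libraries of the BAZ1B experiment for further genes of the comparison. TDRD10 was at 21.7 and 30.4 there, at most 0.214 in the WT here and at 3.93, 12.5 and 6.80 in BAZ1B KO. SLFN13 was at 0.0650 and 0.102, against 8.94 to 11.3 in the WT here and at most 0.279 in BAZ1B KO. ZNF689 lay nearer to the WT of this comparison, at 10.5 and 15.1 CPM there, at 36.4 to 39.7 in the WT here and at 117, 139 and 149 in BAZ1B KO.

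Deviations from the group mean at D0 and at D6 were compared between libraries of the same genotype and number. They correlated at 0.409, 0.532 and 0.146 for KO and at 0.245, -0.00865 and 0.152 for WT. These are correlations across genes and not across samples.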
